A study of Drosophila melanogaster with 14 samples.

Results

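Su(Hw), the suppressor of Hairy-wing protein, was compared between 2 chromatin immunoprecipitation and sequencing (ChIP-seq) libraries of Kc167 cells, 1 untreated (0 h) and 1 after 3 h with 5e-07 M 20-hydroxyecdysone (20HE). Kc167 is an established line from Drosophila melanogaster embryos, and all cells were kept in the same serum-free medium. The members were the peaks of the deposited Su(Hw) lists on the chromosome arms X, 2L, 2R, 3L, 3R and 4, after leaving out unplaced and heterochromatic sequence: 7951 of 7972 peaks at 0 h and 8492 of 8514 at 3 h, together 16443 of the 81028 peaks in the 12 lists of the series. The other lists cover CP190, dCTCF and BEAF-32 at 0, 3 and 48 h, and Su(Hw) at 48 h. Every list comes from 1 library, so nothing between times was tested, and the 95% Wilson intervals given with shares cover counting error over peaks, not the spread between cultures.

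Su(Hw) is a zinc-finger protein that binds the gypsy retrotransposon and many other sites in the fly genome. At gypsy it holds an insulator complex together with CP190 and a Mod(mdg4) isoform, and such complexes can block an enhancer from acting on a promoter when they lie between them. In other tissues Su(Hw) also represses genes, among them neuronal genes in the female germline. 20HE acts through a nuclear receptor made of EcR and Ultraspiracle, and Kc cells respond to it by ceasing to divide and extending processes. The gene annotation used here belongs to another genome release than the lists, so peaks are given by position and not by gene.

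A peak was called shared when it overlapped a peak of the other list by at least 1 bp. It was called lost (listed at 0 h) or gained (listed at 3 h) when no peak of the other time lay within 1 kb. Most sites were shared: 7354 of the 0 h peaks, or 92.5% (91.9 to 93.1), and 7380 of the 3 h peaks, or 86.9% (86.2 to 87.6). Lost peaks numbered 455, which is 5.72% of the 0 h list, and gained peaks numbered 767, which is 9.03% of the 3 h list. The 3 h list is the longer one, and which class is larger depends on that: with the lists shortened to equal length by score, 523 peaks were gained and 601 lost. The remaining 142 peaks at 0 h and 345 at 3 h had a neighbour in the other list within 1 kb but no overlap. The lists themselves fixed these classes, so the counts describe them and nothing more. The nearest gained peak lay 1003 bp from a 0 h peak and the farthest of those that missed the rule lay 992 bp away. For lost peaks the same distances were 1014 and 985 bp.

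Gain and loss by this rule were confined to weak peaks in these lists. Each peak carries the authors' score, which the sources used here do not define. It starts at 100, and values of 3100 or more are treated here as tied at the top. Among 0 h peaks scoring 100 to 200, 381 of 1652 were lost (23.1%, 21.1 to 25.2). From 200 to 400 the count was 74 of 1360 (5.44%, 4.36 to 6.78). None of the 931 peaks from 400 to 800 was lost (upper limit 0.411%), and the 2748 peaks at the tied score were all shared. At 3 h, 613 of 1741 peaks scoring 100 to 200 were gained (35.2%, 33.0 to 37.5), 140 of 1483 from 200 to 400 (9.44%), and 14 of 1056 from 400 to 800 (1.33%). The highest score of a lost peak was 362.75 and that of a gained peak 620.18. Gained and lost peaks were also narrow, with median widths of 476 and 499 bp beside 674 bp for shared peaks at 3 h and 682 bp at 0 h. Within the score class 100 to 200 the widths were close, at 464 bp for gained and 487 bp for shared peaks at 3 h, and 492 bp for lost and 506 bp for shared peaks at 0 h.

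**Figure D1:**
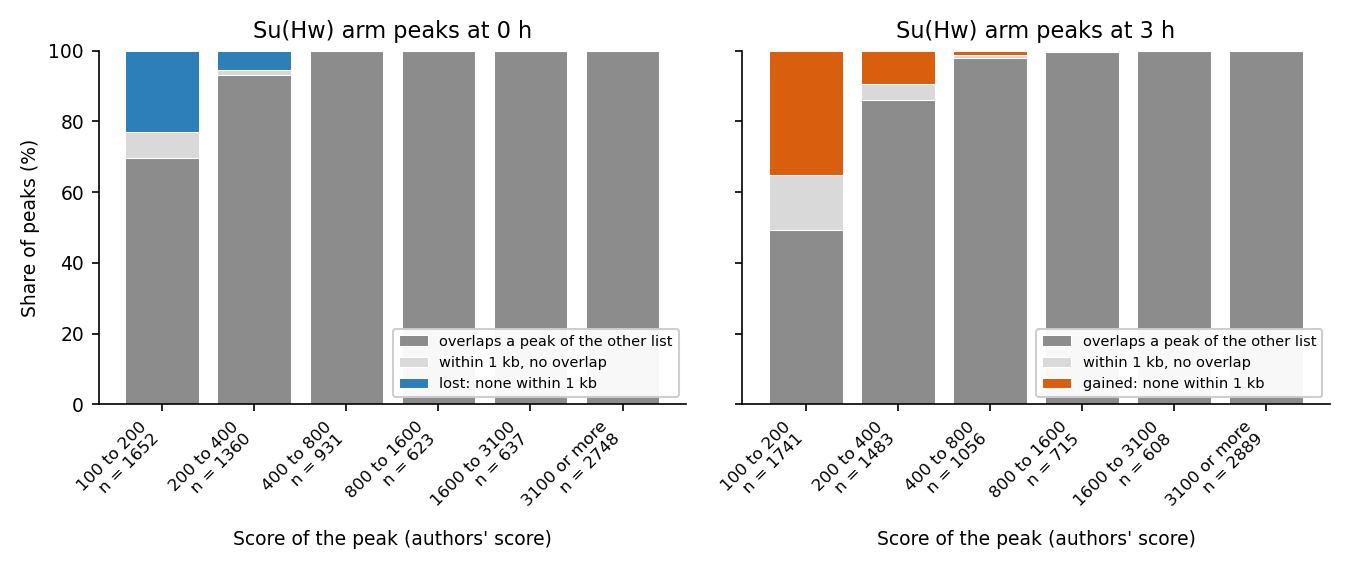
Share of Su(Hw) arm peaks (y axis, %) by the authors' score (x axis) that overlapped a peak of the other list, lay within 1 kb of one without overlap, or had none within 1 kb, at 0 h (left) and 3 h (right). In the lowest score class 23.1% of 0 h peaks were lost and 35.2% of 3 h peaks were gained, and from 1600 upward every peak in both lists was shared.

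The peaks with a neighbour but no overlap were mostly small peaks beside a shared one. Of the 345 at 3 h, 322 (93.3%, 90.2 to 95.5) had a shared 3 h peak within 1 kb, at a median gap of 310 bp over the 345, and in 138 of these 322 the shared neighbour was at the tied score. Of the 142 at 0 h, 115 (81.0%) had a shared 0 h peak within 1 kb, and 29 of these neighbours were at the tied score. By the rule, each of these peaks had a peak of the other list within 1 kb. Of all arm peaks, 92.5% at 0 h and 86.9% at 3 h were shared, so a shared neighbour follows largely from the rule. Side peaks beside a shared peak were listed more often at 3 h, 322 against 115. Broken peaks were rarer: 102 peaks of the 0 h list were overlapped by 2 or more 3 h peaks, and 75 of the 3 h list by 2 or more 0 h peaks.

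Like most gained peaks, the 5 with the highest score lay mostly at sites without CP190, the zinc-finger cofactor that insulator complexes share. The first, 3R:16590949-16591933 (score 620.18, 985 bp wide), lay 11875 bp from the nearest 0 h Su(Hw) peak and was listed again at 48 h with a score of 335.49. CP190 and dCTCF, the fly counterpart of vertebrate CTCF, had no peak there at any time, and BEAF-32, a boundary element factor, had one at 48 h. At 2R:9888055-9888757 (score 560.59, and 645.1 in the 48 h list) no other protein had a peak at any time. The gained peak at 3L:16997534-16998310 (score 505.85) was not listed at 48 h and overlapped a BEAF-32 peak at 3 h. At 2R:4532387-4533010 (score 472.48, and 649.38 at 48 h) the partner list with a peak was that of BEAF-32 at 48 h. The exception was 3R:8233887-8234270 (score 493.96), where CP190 had peaks at 0, 3 and 48 h with scores of 288.3, 485.14 and 367.95, and BEAF-32 also had a peak at each time. Of these 5 peaks, CP190 had 1 and dCTCF none. Among all 767 gained peaks, 36.8% overlapped a CP190 peak and 24.9% a dCTCF peak at 3 h.

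The 5 lost peaks with the highest score were more mixed. At 2R:17967078-17968130 (score 362.75 at 0 h, 1053 bp wide) CP190 was listed at 0 and 3 h and BEAF-32 at all times, while Su(Hw) was absent at 3 and 48 h. The peak at 2L:19817027-19817660 (score 357.63) lay on CP190 and dCTCF peaks at the tied score at every time, and Su(Hw) was listed there again at 48 h with a score of 195.36. At 3R:11050850-11051527 (score 339.94) CP190 and BEAF-32 were present throughout, dCTCF was listed at 3 and 48 h, and Su(Hw) returned at 48 h with a score of 147.64. The peaks at 3L:18039718-18040205 (score 354.22) and X:13527917-13529099 (score 347.86) had no partner at any time and were not listed at 48 h. So Su(Hw) dropped out of the 3 h list at 3 of these 5 sites where CP190 did not. Among all 455 lost peaks, 50.3% overlapped a 0 h CP190 peak.

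CP190 itself seldom changed where Su(Hw) changed. Of the 229 lost Su(Hw) peaks that overlapped a 0 h CP190 peak, 220 also overlapped a 3 h CP190 peak, and 9 (3.93%, 2.08 to 7.30) did not. At shared Su(Hw) peaks the corresponding share was 70 of 3543 (1.98%, 1.57 to 2.49). Of the 514 gained Su(Hw) peaks without CP190 at 0 h, 34 (6.61%, 4.77 to 9.10) had it at 3 h. Among shared 3 h peaks it was 395 of 3808 (10.4%, 9.44 to 11.4). The shared peaks include the strong ones, so none of these shares is matched for score. In the class 100 to 200 alone, CP190 overlapped 33.8% of gained peaks at 0 h and 38.3% at 3 h. For shared 3 h peaks of that class the shares were 50.2% and 52.3%. CP190 at gained sites was mostly there before the hormone: 248 of the 282 gained peaks with CP190 at 3 h had it at 0 h too, and 480 of the 767 gained peaks had it at neither time.

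By the same 1 kb rule CP190 gained 727 peaks on the arms (11.6% of its 3 h list) and lost 181 (3.16% of its 0 h list). Of the gained Su(Hw) peaks, 29 overlapped a gained CP190 peak (3.78%, 2.65 to 5.38), as did 329 of the shared 3 h peaks (4.46%, 4.01 to 4.95), intervals that overlap. Lost CP190 peaks lay on 9 lost Su(Hw) peaks (1.98%, 1.04 to 3.72) and on 61 shared 0 h peaks (0.829%, 0.646 to 1.06). These intervals overlap narrowly, and the shared peaks include the strong ones. Among sites where both proteins appeared, X:7782161-7782994 had the highest Su(Hw) score at 347.34, with a CP190 score of 116.03 and a BEAF-32 peak at all times. It was followed by 2R:10686361-10686899 (Su(Hw) 206.46, CP190 156.68, no other protein) and 2L:15949382-15949880 (Su(Hw) 189.73, CP190 103.59), where dCTCF was at the tied score at every time. Where both disappeared, 2L:3986546-3986946 led with a Su(Hw) score of 229.23 and a CP190 score of 182.85, and dCTCF stayed at the tied score. At 3R:11054926-11055644 (Su(Hw) 210.83, CP190 172) BEAF-32 was present throughout, and at 2R:3673239-3673717 (Su(Hw) 115.43, CP190 235.5) BEAF-32 was listed at 3 and 48 h and CP190 returned at 48 h. None of these 3 sites held Su(Hw) at 3 h, and the first and second held it again at 48 h.

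Partners differed between gained and shared peaks of the same score class, within which scores were not matched further. The CP190, dCTCF and BEAF-32 lists played no part in the classes. Among 3 h peaks scoring 100 to 200, a 3 h CP190 peak overlapped 235 of 613 gained peaks (38.3%, 34.6 to 42.2) and 449 of 858 shared peaks (52.3%, 49.0 to 55.7), a difference of -14.0 percentage points (-19.0 to -8.85). For dCTCF the shares were 23.8% (20.6 to 27.3) and 40.2% (37.0 to 43.5). BEAF-32 overlapped 43.7% of the gained (39.8 to 47.7) and 56.5% of the shared peaks (53.2 to 59.8). These partners often lay on the same peaks. Of the 749 peaks of this class with CP190 at 3 h, 632 also had BEAF-32, and at 0 h it was 539 of 712. The differences for the 3 proteins, here and for lost peaks, are thus not independent. In the class 200 to 400 the order was the same for CP190, with 44 of 140 gained peaks (31.4%, 24.3 to 39.5) and 592 of 1277 shared peaks (46.4%, 43.6 to 49.1). When a gained peak had to lie 5 kb from any 0 h peak, the difference for CP190 in the lowest class was -6.88 points (-13.2 to -0.451).

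Lost peaks did not show this shortage of partners. Among 0 h peaks scoring 100 to 200, a 0 h CP190 peak overlapped 187 of 381 lost peaks (49.1%, 44.1 to 54.1) and 481 of 1151 shared peaks (41.8%, 39.0 to 44.7), a difference of 7.29 points (1.54 to 13.0). BEAF-32 overlapped 47.0% (42.0 to 52.0) of the lost and 38.7% (35.9 to 41.5) of the shared peaks, and dCTCF 34.9% and 37.6%, with overlapping intervals. The CP190 difference on the lost side was less firm: with CP190 counted within 1 kb it was 1.75 points (-4.03 to 7.50), with the stronger 50% of CP190 peaks it was 2.26 (-2.58 to 7.45), and with lost peaks defined by no overlap alone it was 4.32 (-0.869 to 9.52). In the class 200 to 400, 42 of 74 lost peaks (56.8%, 45.4 to 67.4) and 592 of 1265 shared peaks (46.8%, 44.1 to 49.6) overlapped CP190. For BEAF-32 this class showed no difference: 29 of 74 lost peaks (39.2%, 28.9 to 50.6) and 498 of 1265 shared peaks (39.4%, 36.7 to 42.1) overlapped it.

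**Figure D2:**
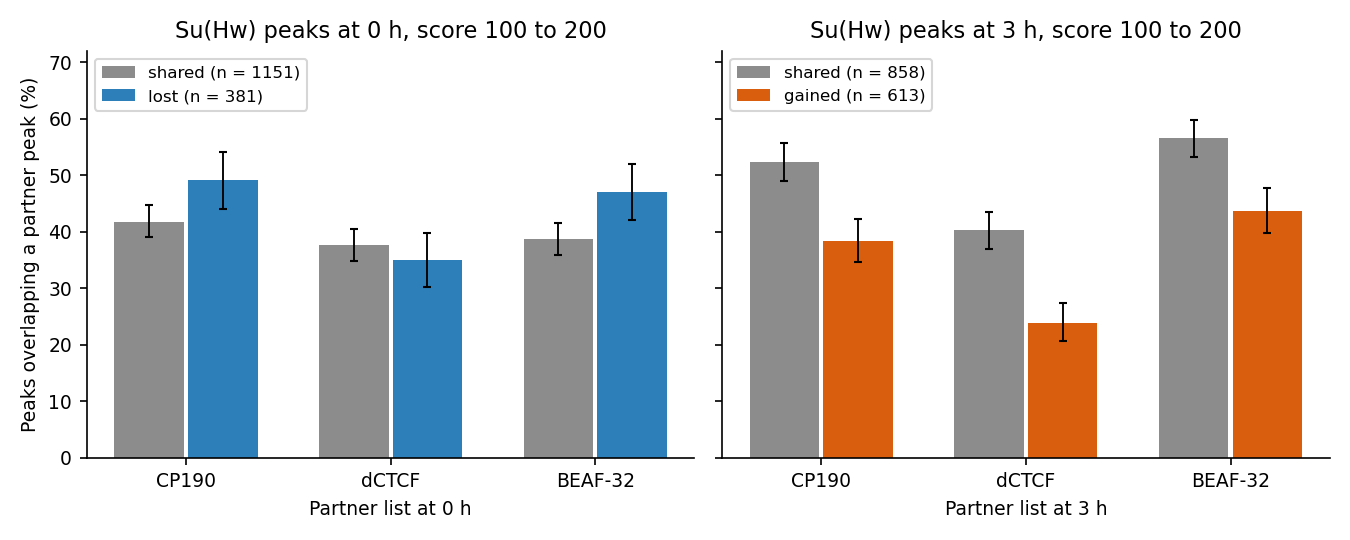
Share of Su(Hw) peaks scoring 100 to 200 (y axis, %) that overlapped a peak of CP190, dCTCF or BEAF-32 at the same time (x axis), for shared and lost peaks at 0 h (left) and shared and gained peaks at 3 h (right), with 95% Wilson intervals. Gained peaks stand below shared peaks for each of the 3 proteins, while lost peaks stand above shared peaks for CP190 and BEAF-32.

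The share of changed peaks did not follow the number of partners steadily. Of the 0 h peaks scoring 100 to 200, 147 of 770 without any partner were lost (19.1%, 16.5 to 22.0), 56 of 207 with 1 partner (27.1%, 21.5 to 33.5), 91 of 268 with 2 (33.96%, 28.5 to 39.8) and 87 of 407 with all 3 (21.4%, 17.7 to 25.6). Loss was thus most frequent at sites with 2 partners, though that interval overlaps the interval for 1 partner. The intervals for 3 partners and for none overlap too. At 3 h, 288 of 746 peaks without a partner were gained (38.6%, 35.2 to 42.1) and 97 of 281 with 1 (34.5%, 29.2 to 40.3). With 2 partners it was 132 of 339 (38.9%, 33.9 to 44.2), and with all 3 it was 96 of 375 (25.6%, 21.4 to 30.2). Weak peaks at sites with all 4 proteins therefore had the lowest share of gains among these 4 groups, though the interval overlaps that for 1 partner.

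BEAF-32 was the partner that most often joined. Its arm list held 4187 peaks at 0 h and 5882 at 3 h, and how far its overlaps follow from that length was not tested. Of the 247 lost Su(Hw) peaks without BEAF-32 at 0 h, 71 overlapped a BEAF-32 peak at 3 h (28.7%, 23.5 to 34.7), beside 100 of 519 gained peaks (19.3%, 16.1 to 22.9) and 684 of 5747 shared 0 h peaks (11.9%, 11.1 to 12.8). The shared peaks include the strong ones, which rarely had BEAF-32. In the class 100 to 200 alone, BEAF-32 overlapped 38.7% of shared 0 h peaks at 0 h and 51.1% at 3 h, and 47.0% and 60.9% of lost peaks. dCTCF left 33 of 166 lost peaks (19.9%, 14.5 to 26.6), 49 of 199 gained peaks (24.6%, 19.2 to 31.1) and 224 of 2128 shared 0 h peaks (10.5%, 9.29 to 11.9). It also joined 26 of 289 lost, 41 of 568 gained and 332 of 5226 shared 0 h peaks. Lost peaks with dCTCF thus numbered 166 at 0 h and 159 at 3 h, gained peaks 199 and 191, and shared 0 h peaks 2128 and 2236. These dCTCF shares are not matched for score.

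Over the whole range of scores, the partners of shared peaks did not follow Su(Hw) strength in 1 direction. At 0 h, CP190 overlapped 46.8% of shared peaks scoring 200 to 400, 30.7% from 800 to 1600, 22.9% (19.8 to 26.3) from 1600 to 3100 and 63.2% (61.4 to 65.0) at the tied score. At 3 h the last pair of shares was 30.1% (26.6 to 33.9) and 66.7% (64.9 to 68.4). The tied peaks were also the widest, with a median of 897.5 bp at 0 h. BEAF-32 overlapped 39.4% of shared 0 h peaks from 200 to 400 and 6.88% (5.99 to 7.89) at the tied score, and dCTCF 46.6% and 16.4%. The strongest Su(Hw) sites thus mostly held CP190 and rarely BEAF-32.

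The 48 h Su(Hw) list, which the classes did not use, held 131 of the 455 lost peaks (28.8%, 24.8 to 33.1), 348 of the 767 gained peaks (45.4%, 41.9 to 48.9) and 6858 of the 7354 shared 0 h peaks (93.3%, 92.7 to 93.8). Among 0 h peaks scoring 100 to 200 it held 24.9% of the lost (20.9 to 29.5) and 73.5% of the shared (70.9 to 76.0). Among 3 h peaks of that class it held 40.6% of the gained (36.8 to 44.6) and 64.1% of the shared (60.8 to 67.2). At 200 to 400 the shares were 64.3% of 140 gained (56.1 to 71.7) and 86.5% of 1277 shared peaks at 3 h, and 48.6% of 74 lost (37.6 to 59.8) and 86.9% of 1265 shared peaks at 0 h. In both score classes gained and lost peaks were thus listed at 48 h less often than shared peaks of the same list. The intervals for gained and lost peaks were apart at 100 to 200 and overlapped at 200 to 400.

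To follow the strength of shared peaks, 7121 pairs were used in which 1 peak of each list overlapped only the other. They were ranked by score among themselves at each time, as percentiles from the weakest upward. Pairs at the tied score got their mean rank, 81.3 at 0 h and 80.4 at 3 h. A pair tied in both lists therefore changed by -0.93 points. Ranks were closely kept, with a Spearman correlation of 0.96 over the 7121 pairs and 0.87 over the 4294 pairs tied in neither list. The pairs share libraries and tied scores, so these are descriptions. The median absolute change was 1.81 points, and 80% of pairs changed by between -8.02 and 9.58 points. Tied scores hold this value down: ranked among themselves, the pairs tied in neither list had a median absolute change of 7.99 points. Both lists held 2626 pairs at the tied score, 167 pairs were tied at 3 h alone and 34 at 0 h alone. A pair that reaches or leaves the tie moves by about 20 points at once: the median was 19.9 points for the 167 and -21.5 for the 34.

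A rank higher at 3 h by at least 20 points was found in 176 pairs (2.47% of 7121) and a lower one in 110 pairs (1.54%). Of the 176, 80 reached the tied score at 3 h, and 34 of the 110 left it. The limit of 20 points thus took in all 34 pairs that left the tie but only 80 of the 167 that reached it. Among pairs tied in neither list the counts were 96 and 76, shares of 2.24% (1.83 to 2.72) and 1.77% (1.42 to 2.21) whose intervals overlap. CP190 was less common at the first group. Of the 176, 131 (74.4%, 67.5 to 80.3) had CP190 at neither time and 35 (19.9%) at both, whereas the 110 held 54 (49.1%, 39.9 to 58.3) and 50 (45.5%). Put the other way, 131 of 3320 pairs without CP190 ranked higher by 20 points (3.95%, 3.34 to 4.66), against 35 of 3337 with CP190 at both times (1.05%, 0.755 to 1.46). The share ranking lower was 1.63% and 1.498%. Among pairs tied in neither list, 67 of 2390 without CP190 ranked higher by 20 points (2.80%, 2.21 to 3.54), against 27 of 1668 with it (1.62%, 1.11 to 2.34). When those pairs were ranked among themselves, the difference was 2.41 points (0.660 to 4.11), beside 2.90 (2.16 to 3.67) over all pairs.

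Starting rank matters here, since weak pairs have more room above them, so pairs were also compared within bands of 0 h rank. From rank 0 to 20, 63 of 761 pairs without CP190 ranked higher by 20 points (8.28%, 6.52 to 10.5) and 26 of 597 with it (4.36%, 2.99 to 6.30), and the median changes were 4.16 and 1.78 points. From rank 20 to 40 the medians were -0.51 and -3.50, and 4 of 746 and 1 of 621 pairs ranked higher by 20 points. Above rank 40, short of the tie, the medians were 0.29 and -2.19. In this band a rank higher by 20 points was in every case a step onto the tied score, made by 64 of 1005 pairs without CP190 and 8 of 477 with it, and the pairs without CP190 had started nearer to the tie (median rank 52.2 against 48.1). By the median change, pairs without CP190 stood higher at 3 h relative to those with it in each of the 3 bands. Gained peaks, as above, had CP190 less often than shared peaks of the same score class.

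**Figure D3:**
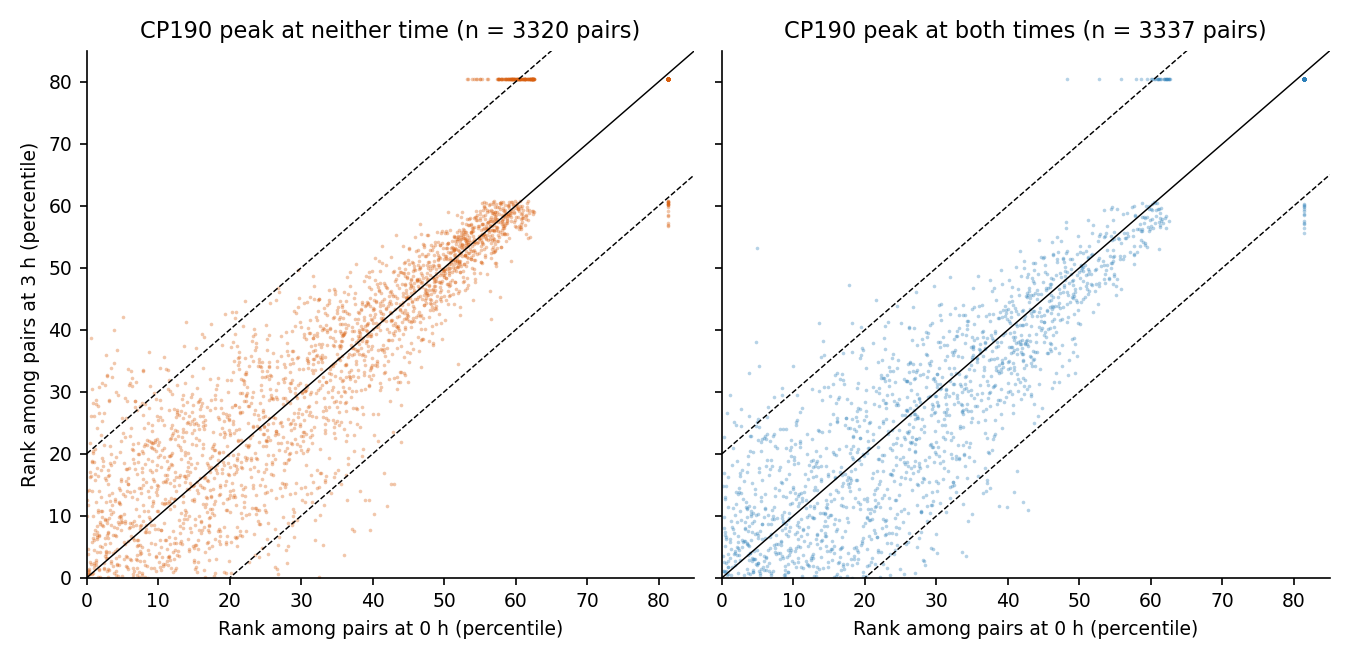
Rank of each 1-to-1 Su(Hw) pair by score among the pairs at 0 h (x axis, percentile) and 3 h (y axis, percentile), for the 3320 pairs with CP190 at neither time (left) and the 3337 with CP190 at both (right). The solid line marks equal rank, the dashed lines mark a change of 20 points, and tied top scores form the points at upper right. More points lie above the upper dashed line on the left (131) than on the right (35), and of these 64 and 8 reached the tied score.

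**Figure D4:**
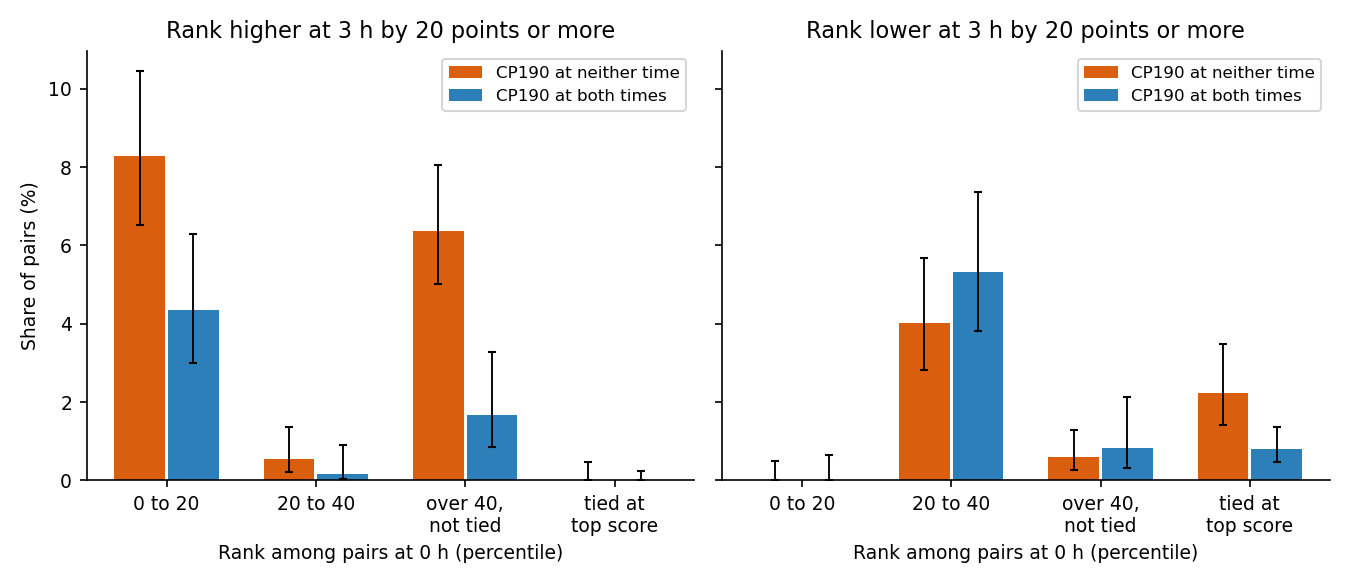
Share of pairs (y axis, %) whose rank was higher (left) or lower (right) at 3 h by 20 points or more, by rank at 0 h (x axis, percentile bands) and CP190 state, with 95% Wilson intervals. In the band 0 to 20, 8.28% of pairs without CP190 and 4.36% of pairs with CP190 ranked higher. The pairs over 40 in the left panel all reached the tied score.

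The largest rank increase was at 3R:8882876-8883411, which went from a score of 130.64 and rank 4.92 at 0 h to 1698.82 and rank 53.2 at 3 h, and widened from 536 to 1321 bp. CP190 was present there at 0, 3 and 48 h, and the Su(Hw) score in the 48 h list was 2929.11. The next 3 had no partner at either time: 3R:19898173-19898533 (rank 0.597 to 38.8), 2R:11960660-11961115 (rank 5.11 to 42.0) and 3R:5691496-5691996 (rank 3.89 to 39.97). The fifth, 2L:19054170-19054659 (rank 4.70 to 38.1), had CP190, dCTCF and BEAF-32 at both times. All 5 were listed at 48 h.

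The largest rank decrease, from 32.5 to 0.0562, was at 3L:16156998-16157969, where the score was 392.58 at 0 h and 100.86 at 3 h and no peak was listed at 48 h. dCTCF was at the tied score there at every time and CP190 was absent at 0 and 3 h. At 3R:16609225-16610196 (rank 35.9 to 3.66) the width went from 972 to 465 bp, and the score in the 48 h list was 1069.91. The peak at 3L:5601166-5601683 (rank 42.8 to 10.9) lay on CP190 and dCTCF peaks at the tied score. At 3L:10585696-10586205 (rank 39.6 to 7.79) and X:2069843-2070622 (rank 42.1 to 11.6) no other protein was listed at 0 or 3 h.

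Widths of shared pairs stayed close. The median log2 ratio of width at 3 h over 0 h was -0.013 (-0.017 to -0.010, an interval over pairs), with 80% of pairs between -0.21 and 0.24, and the median distance between the centres was 21.5 bp. Pairs at least 1.5 times wider at 3 h numbered 144 (2.02%) and those at least 1.5 times narrower 114 (1.60%). Width followed rank in part, with a Spearman correlation of 0.38 between the 2 changes over the 4294 pairs tied in neither list. The 176 pairs ranking higher had a median log2 width ratio of 0.11 (0.061 to 0.15) and the 110 ranking lower had -0.12 (-0.18 to -0.082). The widest relative gain was at 2R:7544164-7545028, from 865 to 2140 bp (2.47 times), with CP190 at both times and a score that reached the tie at 3 h. It was followed by the 3R peak that led the rank increases (2.46 times) and by 2L:752614-753178, which went from 565 to 1366 bp (2.42 times) while its rank stayed at 47.4. The narrowest were X:10367423-10368947, from 1525 to 473 bp, 3R:23106548-23107889, from 1342 to 540 bp, and 2R:16719256-16720283, from 1028 to 429 bp.

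Gained peaks were spaced from the stable sites about as those sites were from each other. The median gap from a gained peak to the nearest shared 3 h peak was 5720 bp (5251 to 6233). Shared peaks lay 3863.5 bp from the nearest other shared peak, but the 1 kb rule bars gained peaks from close neighbours. Among the 5741 shared 3 h peaks that also had no shared neighbour within 1 kb the median was 5719 bp (5523 to 5933). Lost peaks lay 6387 bp (5672 to 7355) from the nearest shared 0 h peak, beside 5700 bp (5525 to 5942) for shared peaks under the same limit. A gap of 20 kb or more was found for 11.5% of gained peaks (9.41 to 13.9) and 11.2% of lost peaks (8.63 to 14.4), and for 9.34% and 9.30% of those shared peaks.

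About as many changed peaks stood alone as near another. In windows of 50 kb, 642 windows held 1 gained or lost peak, 184 held 2, 50 held 3, 13 held 4 and 2 held 5. Thus 642 of the 1222 changed peaks (52.5%) were alone in their window and 580 (47.5%) shared it, and whether this departs from an even scatter was not tested. The window X:1800001-1850000 had 5 gained peaks and none lost, and its Su(Hw) peaks numbered 3 at 0 h and 9 at 3 h. The window 3R:10150001-10200000 had 2 gained and 3 lost peaks, and 2R:3400001-3450000 had 4 gained and none lost. Stretches in which consecutive peaks had all changed numbered 147 with 2 peaks, 38 with 3, 12 with 4 and 1 with 5. The stretch with 5, X:1712987-1794152, held 2 gained and 3 lost peaks over 81166 bp and ended just before the X window named above. The longest such stretch was 2R:14082009-14197504, with 3 gained peaks over 115496 bp.

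All 5 large arms had more peaks at 3 h than at 0 h, by between 4.21% on 3L (1617 to 1685) and 10.1% on X (1599 to 1761). The X chromosome had the lowest share of lost peaks, 67 of 1599 (4.19%, 3.31 to 5.29), beside 5.76% to 6.37% on the 4 large autosomal arms, and their intervals overlap that of X. Gained shares ran from 7.84% on 2L (6.54 to 9.37) to 10.1% on 2R (8.67 to 11.7), with 9.71% on X. CP190 at 0 h overlapped 24 of the 67 lost peaks on X (35.8%) and 59 of the 103 on 3L (57.3%). On 2L, 2R and 3R the shares were 52.6%, 58.4% and 45.2%. They rest on between 67 (X) and 115 (3R) lost peaks per arm. No intervals were computed for them, and differences between arms were not tested. Of the 1-to-1 pairs on the 5 large arms, between 45.6% (X) and 48.7% (2R) had CP190 at both times. Side peaks within 1 kb of a 0 h peak made up 4.88% of the 3 h peaks on X (3.97 to 5.99) and 3.56% on 3L (2.78 to 4.56).

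Chromosome 4, a small and largely heterochromatic chromosome, had 22 peaks at 0 h and 21 at 3 h, of which 5 were lost (22.7%, 10.1 to 43.4) and 4 gained (19.0%, 7.668 to 40.001). These shares are above those of the other arms, but the intervals are wide. Of the 5 lost peaks, 4:718006-718530 and 4:717312-717713 lay 292 bp apart, each on CP190 and BEAF-32 peaks that were at the tied score at 0 and 3 h. The peaks 4:226417-226843 and 4:64213-64659 also lay on BEAF-32 peaks at every time. The fifth, 4:76847-77293, was the 1 of the 5 listed again at 48 h. These chromosome 4 peaks were singled out after their values were seen.

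**Figure D5:**
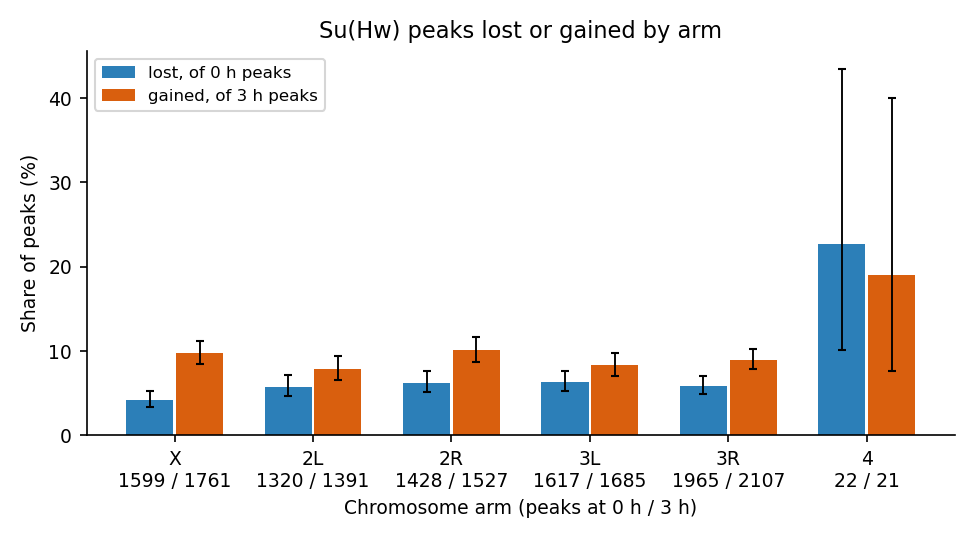
Share of Su(Hw) peaks lost (of 0 h peaks) and gained (of 3 h peaks) in % (y axis) on each chromosome arm (x axis, with the number of peaks at 0 h and 3 h), with 95% Wilson intervals. The 5 large arms lie between 4.19% and 6.37% lost and between 7.84% and 10.1% gained, and chromosome 4 rests on 22 and 21 peaks.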

How the data were processed

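Per the submitters' processing notes, Bowtie 0.12.5 was the aligner. Peak names begin with a MACS prefix, per the deposited lists. The sources used here do not state the caller's version, settings or control, nor the genome build. Sequences are named as in Release 5, and the printed starts count from 1. The authors deposited 1 list per library with a score per peak. Scores were used to rank, filter or group peaks within a list. The depth of the libraries is unknown, and 2 input libraries of untreated cells were not analysed here.

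Overlaps, ranks and widths were computed with scipy 1.17.1, pandas 2.3.3 and numpy 2.4.6 under Python 3.11.15. Figures used matplotlib 3.10.9. The code was tested on simulated lists. Intervals of differences join 2 Wilson intervals, and intervals of medians come from order statistics. Peaks were named by rule: the 5 highest-scoring gained and lost peaks, the 5 largest rank changes each way, the 3 largest and smallest width ratios, the 3 highest-scoring joint changes with CP190, the 3 fullest windows and the longest changed stretch. The members, classes and lists were chosen with earlier results of these data known. Genes, promoters and motifs at the peaks were not analysed here, since no genome of that build was used.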

Additional observations from a re-analysis of the deposited data

How the results depend on the processing

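Of 109 alternative values, 77 stayed within the interval of the reported value or within 1.5 times a reported count, 32 moved beyond it and no signed value changed sign. The balance of gained over lost peaks did turn: with lists of equal length, 523 were gained and 601 lost. The cause of these moves was not tested beyond what each setting does by construction. Some of the values that stayed could not move. Asking shared peaks to overlap by a share of the shorter peak, or to have centres within 250 bp, leaves the gained and lost peaks unchanged. Their counts and CP190 shares were therefore fixed in advance under these settings.

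With peak centres within 250 bp, 89.6% of 0 h and 83.9% of 3 h peaks were shared. Merging peaks less than 200 bp apart gave 87.8% at 3 h. In the stronger 50% of each list the shares were 98.5% and 92.3%, with 278 gained and 49 lost peaks and a median log2 width ratio of -0.0043. CP190 was at 65.3% of these lost peaks and at 51.9% and 58.1% of shared peaks (0 h and 3 h). In the full lists the highest gained score was 620.18 and the highest lost score 362.75. Both are below the median scores at the cut, 777.84 at 3 h and 826.42 at 0 h. Each of the 278 and 49 thus had a peak of the other full list within 1 kb that the cut removed. With lists of equal length the shared percentages were 90.3% and 90.4%. With a limit of 5 kb, 410 peaks were gained and 259 lost, CP190 overlapped 44.1% and 56.8% of them, and their median gaps to the nearest peak of their own list were 8699.5 and 9286 bp (4413 and 5201 bp under the 1 kb rule). With no distance limit these gaps were 2240.5 and 3526 bp.

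CP190 within 1 kb was found at 41.5% of gained peaks, against 36.8% by overlap, and at 52.8% and 57.6% of shared peaks, against 48.2% and 52.8%. The stronger 50% of CP190 peaks overlapped 17.7% of gained, 27.9% of lost, and 30.5% and 33.2% of shared peaks at 0 h and 3 h, against 50.3% of lost peaks with all CP190 peaks. Pairs below the tied score had a median absolute rank change of 7.99 points and a median log2 width ratio of -0.026. With a rank change of 10 points, pairs without CP190 ranked higher more often by 7.26 points. The gained difference for CP190 was -6.88 points under the 5 kb limit. The alternatives for the 3 CP190 differences were chosen after seeing the data.

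No paired analysis was possible because each protein and time had 1 library. Read depth is unknown, so a weak peak missing from a list is not shown to be an unbound site.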
